A study of Mus musculus with 10 samples.

Results

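Nestin (Nes), vimentin (Vim), prominin 1 (Prom1) and the Musashi genes Msi1 and Msi2 mark neural stem and progenitor cells, and Id1, Id2, Id3 and Id4 encode inhibitors of differentiation. These 9 genes, 5 progenitor markers and 4 Id factors, were taken by their symbols from the 50559 genes counted in 10 mouse RNA libraries. No cut on their values was used, but the choice was made with earlier results of these data known. All 9 passed the filter on low counts, as did 29952 genes in total.

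Nestin and vimentin are intermediate filament proteins of dividing neural precursors and radial glia, and vimentin is also made by astrocytes, endothelium and fibroblasts. Prominin 1 is a membrane protein of cell protrusions, known as the stem cell antigen CD133. Musashi proteins bind mRNAs and regulate their translation in progenitors. Id proteins carry a helix-loop-helix domain without a DNA-binding region. They pair with E proteins, keep them from forming active dimers with proneural bHLH factors, and are induced by BMP signaling through SMAD proteins. In the postnatal cerebellum, granule cell precursors (GCPs) divide in the external granular layer under SHH, while Bergmann glia keep radial glia features, among them vimentin.

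The 4 MYC/SMARCA4 tumors grew after transplantation into cerebella of CD1nu/nu hosts, immunodeficient mice that lack a thymus. The transplanted cells were GCPs of Math1-creERT2::Smarca4fl/fl pups, which had received 0.4 mg of tamoxifen at P3, and they carried a lentiviral Myc construct with GFP. Cells were not sorted before transplantation, so recombined and transduced cells were mixed with others. In the study's stainings of the grown tumors, SMARCA4 was lost in all tumor cells, GFP was uniformly high and MYC varied. Staining for nestin protein was scattered in these tumors, and the study describes no such staining of the other groups. Labelled ages were 112, 96, 89 and 79 days for tumors 1 to 4. The 3 control cerebella were taken at P7 from mice of this same genotype, Math1-creERT2::Smarca4fl/fl, also given 0.4 mg of tamoxifen at P3 (P7 cerebella). They hold the same Smarca4 deletion in cells of the Math1 lineage, where Math1 (Atoh1) is the GCP gene whose promoter drives Cre. The study found SMARCA4 lost in only part of the GCPs cultured after this induction, and whole cerebella also hold other lineages. The 3 SHH medulloblastomas (SHH MB) were of Math1-cre::Smofl/wt mice of 7 days, with Cre under the same promoter, for which the labels give neither tamoxifen nor a Smarca4 allele. All RNA was from formalin-fixed, paraffin-embedded (FFPE) tissue. Tumors and P7 cerebella thus differ also in age, in host strain and in the tissue sampled, and these differences cannot be told apart from the alterations of Myc and Smarca4. Tumors and SHH MB differ also in age, in grafting into CD1nu/nu hosts and in genotype. These cannot be told apart from the type of tumor. The 4 tumors have 4 different ages and thus came from separate hosts, but the labels do not say whether the grafted GCPs were prepared separately. For P7 cerebella and SHH MB the labels give only the numbers, so p-values measure the spread between these samples.

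Totals ranged from 5663491 to 9352109 counts per library. Levels are given as counts scaled to the library size (CPM) after scaling with TMM factors, which correct for differences in library composition, and a floor of 3 counts corresponded to 0.304 to 0.737 CPM. TMM factors were 0.622, 0.807, 1.27 and 0.884 in tumors 1 to 4 and 1.01 to 1.19 in the other libraries. A lower factor raises the CPM of a library, so the levels in tumors 1 and 3 rest also on this scaling. Differences are log2 fold changes with their standard error (SE), and a gene was called at an adjusted p of at most 0.05. Myc was counted at 151, 365, 1574 and 1007 CPM in tumors 1 to 4. In the 6 other libraries it was at 12.9 to 45.4 CPM, and lentiviral reads were not separated from endogenous ones. Smarca4 was at 135 to 242 CPM in the tumors and at 219 to 280 CPM in P7 cerebella, and counts over the whole gene do not check the deletion. Mitochondrial genes took 2.29% to 6.36% of counts in the tumors, with the highest share in tumor 1, and 1.25% to 1.59% in the other groups. The GCP gene Atoh1 had 2 to 225 counts in the tumors, 137 to 291 in P7 cerebella and 629 to 980 in SHH MB. The tumors differed more from each other than did the libraries of either other group, and the values of each tumor are therefore given.

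Nes was the member with a called difference. It fell 5.61-fold in MYC/SMARCA4 tumors against SHH MB, and did not differ beyond the spread between the tumors and P7 cerebella. SHH MB had higher Nes, Vim, Prom1 and Msi1 and lower Id1, Id3 and Id4 than P7 cerebella in every library, but the number of these differences that were called depended on the fit. Among all genes tested, 17.8% were higher and 19% lower without overlap between these 2 groups. Against P7 cerebella, the 4 Id genes all had negative fold changes in the tumors, whose median was -1.04 (log2) beside -0.05 over all genes tested. Of the 4, 0 were called, beside 2.27% of all genes called lower. Msi2 differed least between libraries. In bulk RNA, fewer cells of a type and less RNA per cell cannot be told apart.

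**Figure D1:**
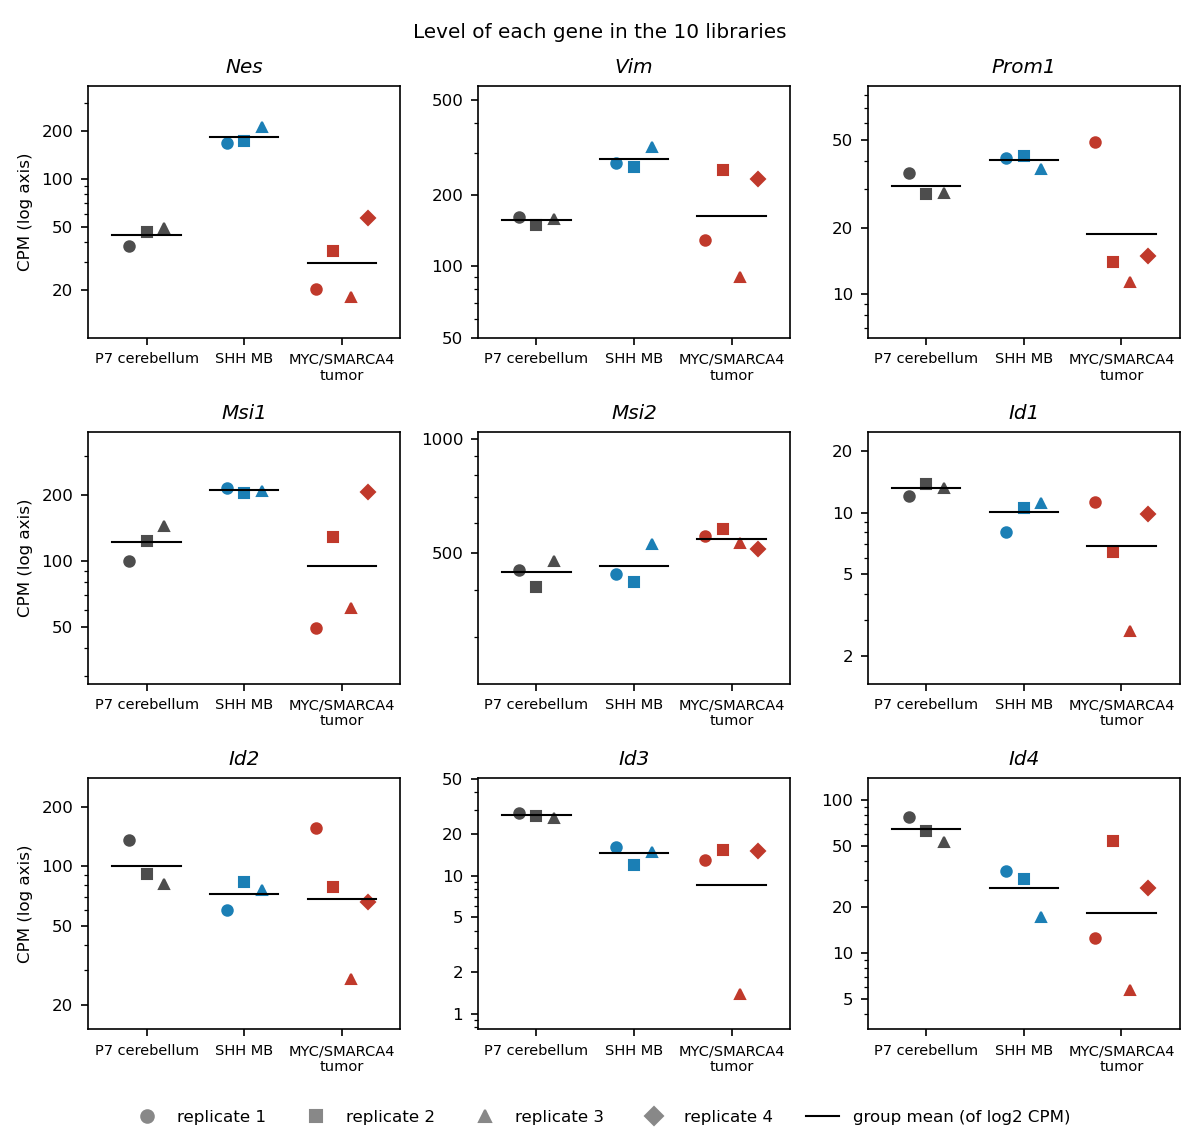
Level of each of the 9 genes in CPM on a log axis, with a point per library and a line at the mean of log2 CPM for 3 P7 cerebella, 3 SHH MB and 4 MYC/SMARCA4 tumors. Nes in SHH MB (166 to 212 CPM) lies above all other libraries, Msi2 is at 407 to 579 CPM throughout, and tumor 3 is the lowest library for each Id gene.

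Levels of different genes were compared only per length, as CPM per kb of all annotated exons of a gene. Msi2 was highest in the tumors at 44.3 ± 2.33 CPM per kb (SD, n = 4) and in P7 cerebella at 36.2 ± 2.84 CPM per kb (SD, n = 3). Vim was highest in SHH MB at 59.8 ± 6.53 CPM per kb (SD, n = 3). Prom1 was lowest in each group, at 2.87 ± 2.30 CPM per kb in tumors, 3.97 ± 0.51 in P7 cerebella and 5.18 ± 0.39 in SHH MB. Nes ranked 7 of 9 in tumors at 5.08 ± 2.79 CPM per kb, 8 of 9 in P7 cerebella at 6.92 ± 0.95 and 4 of 9 in SHH MB at 28.6 ± 3.83. With the length of the canonical transcript in place of all exons, Msi2 was first in SHH MB too (224 CPM per kb, beside 130 for Vim), and Nes was last in the tumors (5.32 CPM per kb, beside 5.61 for Prom1), so neighbours in these orders depend on the length used.

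Nes, the filament gene that gives nestin its use as a progenitor marker, was counted at 20.4, 35, 18 and 57.0 CPM in tumors 1 to 4. P7 cerebella 1 to 3 had 37.6, 46.4 and 49.2 CPM. SHH MB 1 to 3 had 166, 172 and 212 CPM. Each SHH MB was thus above each tumor and each cerebellum, whereas tumor 4 was above and the 3 other tumors below all P7 cerebella. Against SHH MB the log2 fold change in tumors was -2.49 ± 0.37 (SE), with an edgeR adjusted p of 0.00262. The two-sided exact permutation test of log2 CPM gave p = 0.0286, the smallest that 4 against 3 libraries can give. Among all genes tested 2.26% were called lower and 2.43% higher in this comparison, and 1 of 9 members was called lower and 0 higher. The study's thresholds, with a log2 change of 2.5 or more in size at an adjusted p up to 0.01, were passed by 0.601% of genes, and Nes missed them by its fold change. Nes passed them in 9 of 20 alternatives, among them limma on the deposited log2 values (-2.54, adjusted p = 0.00165) and RLE in place of TMM factors (-2.50, adjusted p = 0.00265). The call of Nes held in each of 20 alternatives, with log2 fold changes from -2.95 to -2.38 and adjusted p from 1.37e-07 to 0.0197. Against P7 cerebella, the log2 fold change in tumors was -0.44 ± 0.36 with an edgeR adjusted p of 0.435. The order of the groups was thus SHH MB, P7 cerebella and tumors, of which the last pair did not differ beyond their spread.

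Nes lies at chr3:87878385-87887758 on the plus strand of GRCm39, the build of the files, with 4 exons in the canonical transcript and no overlapping annotated gene. The RefSeq table of promoters, on the build GRCm38.p6, had entries for 7 of the 9 genes and no entry for Msi1 or Id1. The motifs were searched on both strands in the 250 bases before the transcript start: CACGTG, the E-box that MYC with MAX is known to bind, CANNTG, the wider E-box of bHLH dimers that includes it, and GGCGCC, a GC-rich element known for BMP-activated SMADs. Of 32851 windows of this length, 6.02% held CACGTG, 66.2% held CANNTG and 9.59% held GGCGCC. The window of Nes (chr3:87970843-87971092, plus strand), shown because Nes carries the call, held none of these letters and is printed in lower case.
Nes: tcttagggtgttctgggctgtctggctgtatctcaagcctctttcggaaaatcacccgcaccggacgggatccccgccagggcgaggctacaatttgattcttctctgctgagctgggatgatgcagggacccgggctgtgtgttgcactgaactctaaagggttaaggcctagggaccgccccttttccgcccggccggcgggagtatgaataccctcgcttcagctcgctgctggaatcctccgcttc

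Vim, the filament gene shared by progenitors and astroglia, was at 129, 255, 89.9 and 232 CPM in tumors 1 to 4. It was at 161, 149 and 158 CPM in P7 cerebella and at 272, 261 and 319 CPM in SHH MB. Tumors 2 and 4 were above and tumors 1 and 3 below all P7 cerebella, and all 4 were below SHH MB. In tumors the log2 fold change was 0.18 ± 0.34 against P7 cerebella (edgeR adjusted p = 0.746) and -0.69 ± 0.34 against SHH MB (adjusted p = 0.286, exact permutation p = 0.143). Neither difference passed the test, although the tumors and SHH MB did not overlap. Vim lies at chr2:13578738-13587639 of GRCm39 on the plus strand, with the antisense gene Gm54102 on the other strand. Vim and Nes did not move in one proportion. Nes counts per 100 Vim counts were 15.8, 13.7, 20.1 and 24.5 in tumors 1 to 4. They were 23.4, 31.2 and 31.2 in P7 cerebella and 61.1, 66.2 and 66.3 in SHH MB. This ratio, which needs no scaling of libraries, was higher in SHH MB than in all other libraries, and overlapped between tumors and P7 cerebella by tumor 4 alone.

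Prom1, the gene of CD133 (GRCm39, chr5:44150962-44259395, minus strand), was at 48.9 CPM in tumor 1 and at 13.9, 11.4 and 14.9 CPM in tumors 2 to 4. P7 cerebella had 35.4, 28.4 and 28.7 CPM. SHH MB had 41.7, 42.2 and 36.8 CPM. Tumor 1 was the highest of all 10 libraries, and tumors 2, 3 and 4 were lower than every other library. With all 4 tumors, the log2 fold change was -0.48 ± 0.43 against P7 cerebella (edgeR adjusted p = 0.475) and -0.87 ± 0.43 against SHH MB (adjusted p = 0.287). Without tumor 1 it was -1.29 against P7 cerebella (edgeR adjusted p = 0.000893, within a range of 0.000893 to 0.71 over 20 alternatives). Against SHH MB it was -1.70 without tumor 1 (edgeR adjusted p = 0.00021, range 0.00021 to 0.557). In the edgeR fits, tumor 1 alone decided whether Prom1 was called, and it was also the tumor with the highest level of the mature neuron and myelin markers given further on. The part of these markers in the level of Prom1 was not tested.

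Msi1, an RNA-binding protein of dividing progenitors, was at 49.6, 128, 60.8 and 206 CPM in tumors 1 to 4. It was at 99.6, 123 and 144 CPM in P7 cerebella. SHH MB had 215, 204 and 209 CPM. Tumor 4 reached the level of SHH MB, tumor 2 lay within P7 cerebella, and tumors 1 and 3 were below all other libraries. Differences in tumors were -0.14 ± 0.42 (log2) against P7 cerebella (edgeR adjusted p = 0.845) and -0.91 ± 0.42 against SHH MB (adjusted p = 0.247), and neither passed the test.

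Msi2, the second Musashi gene, was at 555, 579, 533 and 513 CPM in tumors 1 to 4. P7 cerebella had 451, 407 and 476 CPM, and SHH MB had 441, 419 and 529 CPM. The 4 tumors were above all P7 cerebella, and SHH MB 3 lay among the tumors. The log2 fold change in tumors was 0.29 ± 0.26 against P7 cerebella (edgeR adjusted p = 0.471, exact permutation p = 0.0286) and 0.24 ± 0.26 against SHH MB (adjusted p = 0.657). For the first of these the edgeR p before adjustment was 0.28, so the fit and the exact test differed. The exact test uses the spread of Msi2 alone, and the fit shares information on the spread with other genes. The cause of their difference was not tested. The exact p is the smallest that 4 against 3 libraries can give, and 10.3% of all genes were higher without overlap in this comparison. The highest tumor had 1.13 times the level of the lowest for Msi2, 4.16 times for Msi1 and 11.1 times for Id3. Msi2 counts per Msi1 count were 11.2, 4.52, 8.76 and 2.48 in tumors 1 to 4. They were 4.53, 3.30 and 3.30 in P7 cerebella and 2.05, 2.05 and 2.53 in SHH MB. The ratio spanned a wider range in the 4 tumors than in the 6 other libraries.

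**Figure D2:**
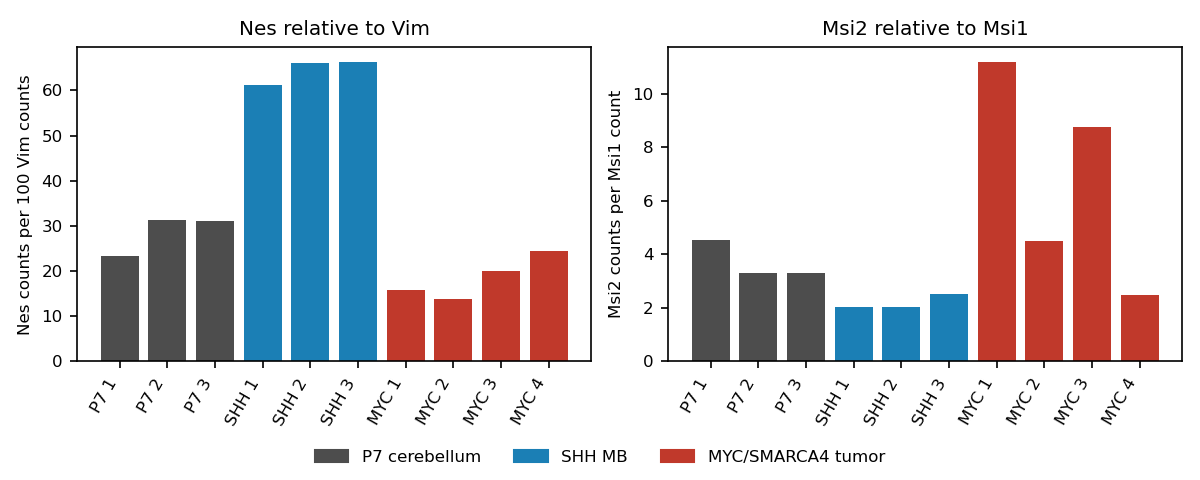
Ratios of counts within each of the 10 libraries, drawn as bars from 0. Nes counts per 100 Vim counts (left) were 61.1 to 66.3 in SHH MB, above all other libraries, and Msi2 counts per Msi1 count (right) ranged from 2.48 to 11.2 in the 4 MYC/SMARCA4 tumors.

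Msi2 lies at chr11:88230208-88609339 of GRCm39 on the minus strand and Msi1 at chr5:115567419-115593757 on the plus strand. Both overlap further annotated transcripts on the opposite strand, and the sources used here do not state whether counting used strand. Of the 7 members with a RefSeq window, only Msi2 had CACGTG in it. Of its 3 windows, which overlap, the window at chr11:88718230-88718479 (GRCm38.p6, minus strand) held 2 matches, with first bases at -174 and -43 from the transcript start, where the base before the start is -1. The other windows held 1 match each. The window is shown because Msi2 was the member that was higher in all 4 tumors than in all P7 cerebella, with CACGTG in capitals. A match of letters is a description and no evidence of binding.
Msi2: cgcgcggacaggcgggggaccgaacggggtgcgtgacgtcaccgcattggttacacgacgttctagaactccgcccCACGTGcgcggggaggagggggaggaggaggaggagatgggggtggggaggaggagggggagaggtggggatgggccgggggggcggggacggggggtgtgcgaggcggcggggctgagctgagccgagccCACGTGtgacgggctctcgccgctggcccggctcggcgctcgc

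Id1, the first of the 4 Id factors, was at 11.3, 6.42, 2.64 and 9.80 CPM in tumors 1 to 4. It was at 12.1, 13.7 and 13.2 CPM in P7 cerebella and at 8.02, 10.5 and 11.1 CPM in SHH MB. All tumors and all SHH MB were below all P7 cerebella. The log2 fold change in tumors was -0.79 ± 0.40 against P7 cerebella (edgeR adjusted p = 0.235, exact permutation p = 0.114) and -0.40 ± 0.41 against SHH MB (adjusted p = 0.627). Id1 was counted with 19 to 127 reads per library, and neither difference passed the test.

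Id2, which is also made by postmitotic neurons such as Purkinje cells, was at 156, 78.5, 27.1 and 66.0 CPM in tumors 1 to 4. P7 cerebella had 135, 91.6 and 81.8 CPM, and SHH MB had 60.5, 83.0 and 75.8 CPM. The tumors spanned the whole range of the series, with the highest level in tumor 1 and the lowest in tumor 3. For Id2 the log2 fold change in tumors was -0.33 ± 0.44 against P7 cerebella (edgeR adjusted p = 0.631) and 0.16 ± 0.45 against SHH MB (adjusted p = 0.874). The 3 groups could not be ordered beyond their spread.

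Id3, a target of BMP signaling in many tissues, was at 13.0, 15.3, 1.39 and 15.0 CPM in tumors 1 to 4. P7 cerebella had 28.4, 27 and 25.9 CPM. SHH MB had 16.2, 11.9 and 14.8 CPM. Tumors 1, 2 and 4 lay within the range of SHH MB and all 4 were below P7 cerebella, while tumor 3 had 10 counts, above the floor of 3 counts. The log2 fold change in tumors was -1.28 ± 0.52 against P7 cerebella (edgeR adjusted p = 0.152, exact permutation p = 0.0857) and -0.36 ± 0.53 against SHH MB (adjusted p = 0.751). Without tumor 3 the difference from P7 cerebella was smaller, at -1.06, but was called (edgeR adjusted p = 0.0103, within 0.0103 to 0.288 over 20 alternatives). Leaving out the lowest tumor thus made the difference smaller and its adjusted p lower.

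Id4, which is known in astroglial and stem cells of the brain, was at 12.5, 54.3, 5.69 and 26.5 CPM in tumors 1 to 4. P7 cerebella had 78.2, 63.1 and 53.5 CPM, and SHH MB had 34.2, 30.5 and 17.2 CPM. Tumor 2 reached the lowest P7 cerebellum, and the other tumors were below all 3. For Id4 the log2 fold change in tumors was -1.39 ± 0.55 against P7 cerebella (edgeR adjusted p = 0.143, exact permutation p = 0.0857) and -0.14 ± 0.56 against SHH MB (adjusted p = 0.915). Without tumor 2 it was -2.11 against P7 cerebella (edgeR adjusted p = 0.0404, within 0.0336 to 0.320 over 20 alternatives). The highest tumor was 9.53 times the lowest for Id4, 5.75 times for Id2 and 4.29 times for Id1.

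The windows of Id2 (chr12:25096093-25096342, minus strand) and Id4 (chr13:48260866-48261115, plus strand; both GRCm38.p6) each held 1 GGCGCC, and that of Id2 also 1 CANNTG. Neither motif was found in the window of Id3. The first base of GGCGCC was at -231 in Id2 and at -148 in Id4, and that of CANNTG in Id2 was at -196. They are shown because both genes belong to the BMP-responsive family, with the matches in capitals.
Id2: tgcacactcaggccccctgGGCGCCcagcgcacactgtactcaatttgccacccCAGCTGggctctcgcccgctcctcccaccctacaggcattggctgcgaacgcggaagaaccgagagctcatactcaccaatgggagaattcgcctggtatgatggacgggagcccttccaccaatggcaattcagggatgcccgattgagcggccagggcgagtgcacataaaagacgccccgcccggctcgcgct
Id4: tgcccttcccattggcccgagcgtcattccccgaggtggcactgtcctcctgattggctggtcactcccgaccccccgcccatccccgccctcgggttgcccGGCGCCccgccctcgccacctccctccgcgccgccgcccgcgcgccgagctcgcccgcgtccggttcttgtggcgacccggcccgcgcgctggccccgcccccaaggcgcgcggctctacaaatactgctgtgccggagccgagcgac

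In the files' build GRCm39, Id1 lies at chr2:152566218-152579544 and Id3 at chr4:135870808-135873066. Id2 lies at chr12:25143798-25147282 and Id4 at chr13:48414558-48419502. Each overlaps an annotated gene on the opposite strand, so that reads of those transcripts may be in the counts if strand was not used.

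Against P7 cerebella, 0 of 9 members were called in the tumors in either direction, beside 3.99% of all genes called higher and 2.27% called lower by edgeR, and DESeq2 called 0 as well. At an unadjusted p of at most 0.05, 2 of 9 members passed, Id3 and Id4, beside 25.2% of all genes. At the study's thresholds it was 0 of 9, beside 0.29% of genes. Groups did not overlap for 1 member that was higher, Msi2, beside 10.3% of genes, and for 2 that were lower, Id1 and Id3, beside 10.7%. A fit by limma voom with a separate spread for each group, added after the data had been seen, called 2 members lower, Id3 and Id4, beside 2.53% of genes. Against SHH MB, groups did not overlap for 0 members that were higher, beside 7.83% of genes, and for 2 that were lower, Nes and Vim, beside 8.3%. At an unadjusted p of at most 0.05, Nes and Msi1 passed, 2 of 9 members beside 19.8% of all genes. The fit with a spread for each group called Nes and Prom1 lower in this comparison, beside 2.64% of genes. Both comparisons use the same 4 tumors and are not independent.

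**Figure D3:**
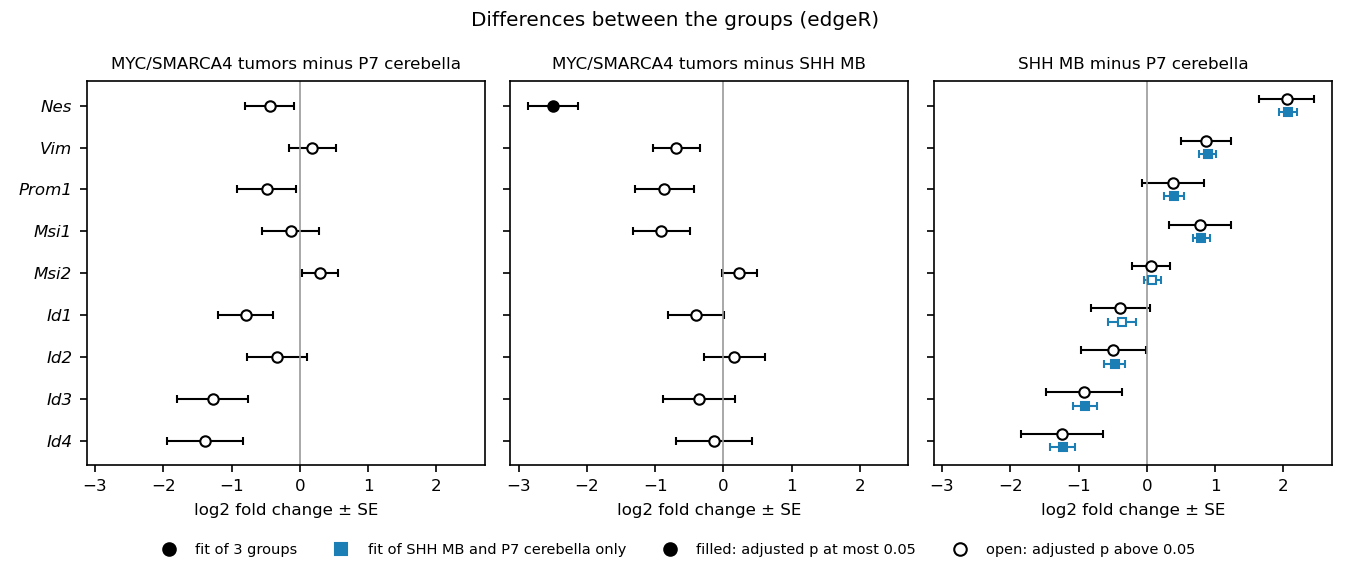
Log2 fold changes with SE for the 9 genes in the 3 comparisons, from the edgeR fit of all 10 libraries (black circles) and, on the right, also from a fit of SHH MB and P7 cerebella alone (blue squares), with filled symbols at an adjusted p of at most 0.05. Nes at -2.49 in tumors against SHH MB is the one filled circle, while 7 of the 9 squares are filled at nearly the same fold changes as the circles.

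Between SHH MB and P7 cerebella, Nes was 4.13-fold higher in SHH MB, with a log2 fold change of 2.05 ± 0.40. Vim (0.87 ± 0.37), Msi1 (0.77 ± 0.45) and Prom1 (0.38 ± 0.46) had positive fold changes, and Id4 (-1.25 ± 0.60), Id3 (-0.92 ± 0.56), Id2 (-0.49 ± 0.47) and Id1 (-0.39 ± 0.43) negative ones. Msi2 was at 0.06 ± 0.28. Groups did not overlap for 4 members that were higher (Nes, Vim, Prom1, Msi1), beside 17.8% of all genes, and for 3 that were lower (Id1, Id3, Id4), beside 19%. The smallest p that an exact permutation test of 3 against 3 libraries can give is 0.10, and it was reached by these 7 members.

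In the fit of all 10 libraries, 0 of 9 members were called between SHH MB and P7 cerebella, where 0.177% of all genes were called higher, 0.0467% lower and 0.01% at the study's thresholds. At an unadjusted p of at most 0.05, 2 of 9 members passed, Nes and Vim, beside 8.8% of genes, and DESeq2 called 1. Nes ranked 90 of 29952 by p, with an edgeR adjusted p of 0.0672. This fit shares 1 estimate of the spread over 3 groups, and the spread of the tumors was large. A fit of only these 6 libraries, over 29018 genes, called 7 of 9 members. It called Nes (2.07, edgeR adjusted p = 4.53e-12), Vim (0.89, 1.53e-06), Msi1 (0.80, 2.32e-05) and Prom1 (0.40, 0.045) higher, beside 13.4% of genes. It called Id4 (-1.23, edgeR adjusted p = 7.58e-06), Id3 (-0.91, 0.000214) and Id2 (-0.47, 0.0232) lower, beside 10.3%. The voom fit with a separate spread for each group called 5 members, Nes, Vim and Msi1 higher, beside 8.99% of genes, and Id3 and Id4 lower, beside 7.77%. Over 20 alternatives the adjusted p of Nes ranged from 4.53e-12 to 0.426 and was at most 0.05 in 8 of them, among them the fits without tumor 1 (0.00464), tumor 3 (0.0173) or tumor 4 (0.0284). For Vim, Msi1, Id3 and Id4 it was at most 0.05 in 2 of 20, and for Prom1 and Id2 in 1 of 20. The fold changes of these 7 members kept their direction in all 20. The number of calls thus ranged from 0 to 7 between these fits at nearly equal fold changes.

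The make-up of the Id family was compared as the share of each gene in the summed Id counts per kb. Id2 made up 73.2%, 48.4%, 68.9% and 49.1% in tumors 1 to 4. It made up 49.5%, 41.8% and 41.2% in P7 cerebella and 45.2%, 55.3% and 54.4% in SHH MB. Id2 was thus the largest part in all 10 libraries, and tumors 1 and 3 had a higher share than all others. Id4 made up 4.47%, 25.4%, 11% and 14.9% in tumors 1 to 4, beside 20.4% to 21.9% in P7 cerebella and 9.34% to 19.4% in SHH MB. These shares rest on 265 to 2505 Id counts per library, with the fewest in tumor 3.

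**Figure D4:**
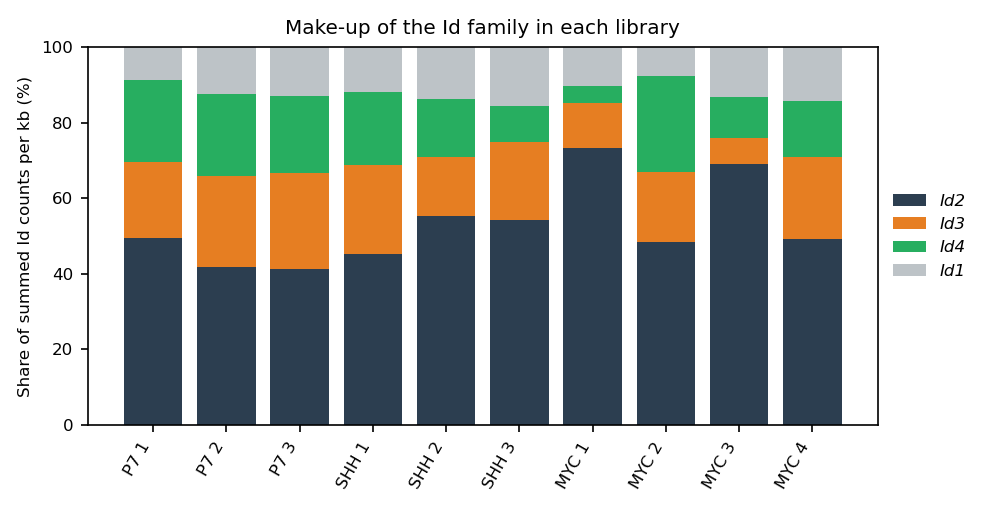
Share of Id2, Id3, Id4 and Id1 in the summed Id counts per kb, in percent, for each of the 10 libraries. Id2 is the largest part in every library, from 41.2% to 73.2%, and exceeds the range of both other groups only in MYC/SMARCA4 tumors 1 (73.2%) and 3 (68.9%).

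Since several members are also made by glia, vessels or neurons, their levels were set beside marker lists of other cell types. The 12 markers of astrocytes and Bergmann glia summed to 1383, 3502, 680.0 and 2619 CPM in tumors 1 to 4, to 2758 to 2877 CPM in P7 cerebella and to 2156 to 2426 CPM in SHH MB, and all 12 were above the floor in each library. Such sums give most weight to abundant genes, such as Slc1a2 here, with 477 to 10989 counts in the tumors. The order of the 4 tumors, 2, 4, 1 and 3 from high to low, was the same for this sum and for Vim, Id3 and Id4, and also for Smarca4. Of the 12 markers 3 were called lower in tumors than in P7 cerebella, the water channel gene Aqp4 (-3.01), the folate enzyme gene Aldh1l1 (-2.22) and the Bergmann glia ligand gene Gdf10 (-2.07). Of the 9 others, none of them called, 4 had positive fold changes, with the largest for the glycolytic gene Aldoc (1.51, adjusted p = 0.179). Against SHH MB, Aldoc was called higher (2.76) and Aldh1l1 lower (-1.81), so that the markers of this list did not move as one. The 6 markers of mature granule neurons summed to 6366, 2196, 188 and 1147 CPM in tumors 1 to 4, to 414 to 515 CPM in P7 cerebella and to 212 to 260 CPM in SHH MB. The 6 markers of Purkinje cells had 10976, 2640, 335 and 1841 CPM in tumors 1 to 4, and 1336 to 1435 and 348 to 609 CPM in P7 cerebella and SHH MB. Among them Itpr1 was the most abundant, with 2069 to 28622 counts in the tumors. Tumor 1 was the highest and tumor 3 the lowest for both lists, as for Id2. The order 1, 2, 4 and 3 was shared by Id2, these lists and those of endothelium, of pericytes with smooth muscle and of myelinating oligodendrocytes. Myc had the reverse order, 3, 4, 2 and 1 from high to low. Whether the level of Myc bears on these orders was not tested. Of the granule neuron markers 3 were called higher in the tumors than in P7 cerebella, Cbln3 (4.27), Grin2c (3.41) and Gabra6 (3.41), which encode a synaptic cerebellin and receptor subunits.

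**Figure D5:**
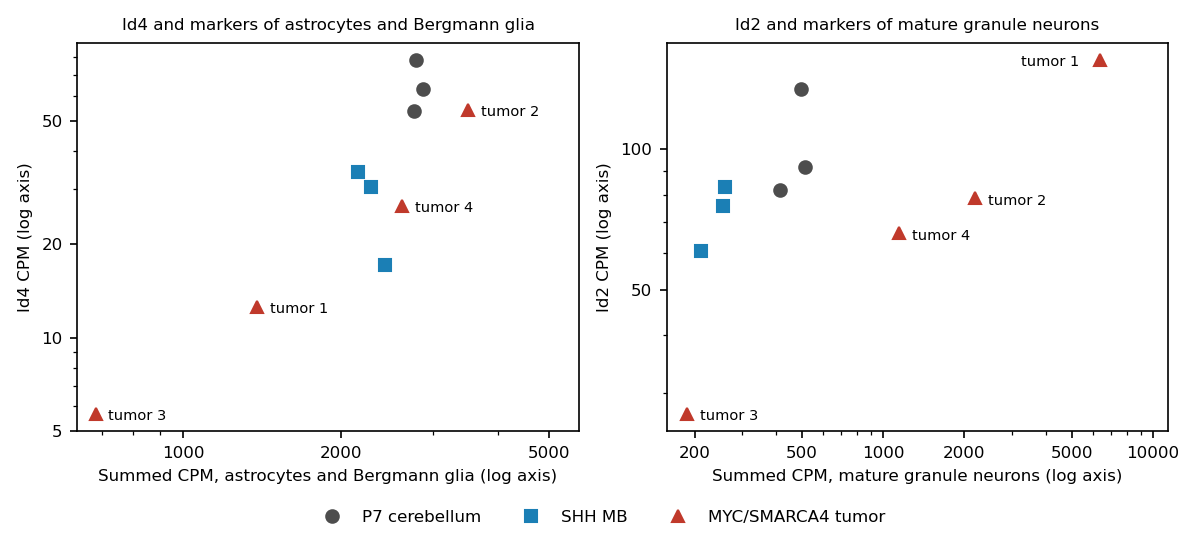
Id4 CPM against the summed CPM of 12 astrocyte and Bergmann glia markers (left) and Id2 CPM against that of 6 mature granule neuron markers (right), both axes logarithmic, with a point per library. Tumor 3 is lowest on all 4 axes (Id4 5.69 CPM, Id2 27.1 CPM), while Id4 in tumor 2 (54.3 CPM) and Id2 in tumor 1 (156 CPM) are the highest among the tumors.

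The 7 markers of myelinating oligodendrocytes summed to 3894, 811, 123 and 420.5 CPM in tumors 1 to 4, to 949 to 1122 CPM in P7 cerebella and to 123 to 393 CPM in SHH MB. The 10 endothelial markers summed to 406, 196, 121 and 169 CPM in tumors 1 to 4, beside 228 to 247 and 215 to 265 CPM in P7 cerebella and SHH MB. For pericytes and smooth muscle (8 markers) the tumors ranged from 174 to 413 CPM, and P7 cerebella and SHH MB from 227 to 244 and 282 to 306 CPM. The 9 fibroblast and meningeal markers were at 248 to 510, 498 to 548 and 533 to 618 CPM in tumors, P7 cerebella and SHH MB. Microglia and macrophage markers (9) were at 54.3 to 162, 79.3 to 83.1 and 52.5 to 82.4 CPM. Among the tumors, tumor 1 had the highest sums for vessels, myelin, mature neurons, microglia, ependyma and choroid plexus, and the highest levels of Prom1, Id1 and Id2. The 6 ependymal markers were at 44.6 to 85.7, 66.5 to 90.9 and 43.4 to 63.6 CPM, and the 4 markers of oligodendrocyte precursors at 49.6 to 174, 266 to 294 and 242 to 277 CPM. The 5 choroid plexus markers were at 35.1 to 71.5 CPM in the tumors, 561 to 1146 CPM in P7 cerebella and 274 to 1269 CPM in SHH MB. In both comparisons Ttr, the transthyretin gene, was the only one of the 5 called (-8.91 against P7 cerebella and -8.94 against SHH MB). The markers listed at 0 were Tagln in tumor 1 and P7 cerebellum 2, and Tmem212 in tumors 1 and 2. The part of any of these cell types in the levels of the 9 genes was not tested.

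The genes around the Id factors were counted in fixed lists. Of 27 E protein genes, BMP ligands, receptors and SMADs, 0 were called higher and 1 lower in the tumors against P7 cerebella, beside 3.99% and 2.27% of all genes. Against SHH MB, 1 was called higher and 0 lower. Between SHH MB and P7 cerebella it was 0 of 27 by edgeR, with 5 at an unadjusted p of at most 0.05, beside 8.8% of all genes. Calls were absent among the 3 E proteins that Id proteins bind (Tcf3, Tcf4, Tcf12), whose median log2 fold change was 0.55 against P7 cerebella and -0.21 against SHH MB, and among the 14 BMP receptors and SMADs, with medians of 0.32 and 0.07 in these comparisons. Of 10 BMP ligands, Gdf10 fell in the tumors against P7 cerebella (-2.07 ± 0.52, edgeR adjusted p = 0.0368). Bmp6 rose against SHH MB (1.67 ± 0.40, adjusted p = 0.0332).

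A list of 14 proneural and neurogenic bHLH factors also held Notch targets of the Hes and Hey families. Its counts and medians therefore do not describe proneural factors alone. Of the 14, 0 were called higher and 2 lower in the tumors against P7 cerebella, beside 3.99% and 2.27% of all genes. The list had a median of -0.87 (log2), beside -0.05 over all genes. The 2 called genes were Olig2, a factor of the oligodendrocyte lineage (-1.76 ± 0.31, edgeR adjusted p = 0.0105), and Neurog1 (-2.90 ± 0.70, adjusted p = 0.0316), which had 1 to 9 counts in the tumors. Against SHH MB 4 were lower and 0 higher, beside 2.26% and 2.43% of all genes, with a median of -0.39 beside 0.01. These were Olig2 (-3.87, edgeR adjusted p = 6.26e-05), the Notch targets Hes1 (-2.02, 0.00507) and Hey1 (-2.03, 0.0194), and Olig1 (-2.94, 0.019). Between SHH MB and P7 cerebella, Olig2 (2.12, edgeR adjusted p = 0.0267) and Hes1 (2.11, 0.0393) were higher and Neurod2, a factor of postmitotic neurons, was lower (-2.24, 0.0402).

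The progenitor markers were set beside 16 other genes known in neural stem cells and radial glia. In the tumors 3 of the 16 were lower than in P7 cerebella and 4 lower than in SHH MB, and 0 were higher in either comparison. Of all genes 2.27% and 2.26% were called lower in these comparisons. The medians of the list were -0.53 and -0.73, beside -0.05 and 0.01 over all genes. Against P7 cerebella the called genes were the matrix gene Tnc (-4.49 ± 0.34, edgeR adjusted p = 0.000138), the lipid binding gene Fabp7 of radial glia (-4.14 ± 0.72, adjusted p = 0.00943) and the gliogenic factor Sox9 (-1.91 ± 0.51, adjusted p = 0.0463). Against SHH MB the same 3 genes and the hyaluronan receptor gene Cd44 (-1.66 ± 0.27, edgeR adjusted p = 0.00494) were lower. Nes and Vim, also made by radial glia, had no called difference from P7 cerebella. Between SHH MB and P7 cerebella, edgeR called 0 of 16, and 4 had an unadjusted p of at most 0.05, beside 8.8% of all genes. None of 8 other intermediate filament genes of neural and glial cells was called in any of the 3 comparisons. Their medians were -0.18, 0.62 and -0.78, beside -0.05, 0.01 and -0.09 over all genes. At an unadjusted p of at most 0.05, 2, 2 and 3 of the 8 passed, beside 25.2%, 19.8% and 8.8% of all genes. Of 10 markers of GCPs and proliferation, the GCP factor Barhl1 was lower in the tumors than in P7 cerebella (-3.16 ± 0.27, edgeR adjusted p = 0.000229). Against SHH MB Barhl1 (-4.78, edgeR adjusted p = 6.28e-06) and the cyclin gene Ccnd1, an SHH target (-2.87, 0.00485), were lower. Both were called higher in SHH MB than in P7 cerebella (Ccnd1 2.97, edgeR adjusted p = 0.0402, Barhl1 1.62, 0.0393).

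For each member the genes with the most similar profile were sought among 13201 genes with a mean log2 CPM of at least 3, by the root mean square difference of log2 CPM, centred on each gene's mean, over the 10 libraries. Close to Nes were Ptch1 (0.27) and Tshz2 (0.27), of which Ptch1 encodes the SHH receptor and is induced by SHH signaling. Closest to Vim were Tgfbr1, Lmo4 and Litaf (0.17 to 0.18). Id4 was nearest to Gdf10 (0.33), Dok6 (0.43) and Gfap (0.46), of which Gdf10 and Gfap are in the astrocyte and Bergmann glia list. Id3 was nearest to Ttyh1, Sult4a1 and Nrcam (0.31 to 0.35). For Id1 the nearest were Ano10, Gm52097 and Pcdhga8 (0.17 to 0.19), and for Id2 LOC118567716, Dop1b and LOC118567717 (0.15 to 0.18). Msi1 was nearest to Arhgap18, Fstl1 and Itpripl1 (0.19 to 0.24), and Msi2, which varied least, to Wdr41, Gm39807 and Tmem242 (0.11 each). Prom1 was nearest to Aim2, 9630009A06Rik and LOC118568167 (0.19 to 0.21). Among the members themselves, Id1 and Id2 (0.39), Vim and Msi1 (0.37) and Id3 and Id4 (0.59) were each other's nearest. These are descriptions over 10 libraries that share groups, host tissue and depth.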

How the data were processed

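RNA of 4 MYC/SMARCA4 tumors, 3 P7 cerebella and 3 SHH MB, grouped by their labels, was extracted from FFPE tissue, depleted of ribosomal RNA and made into CORALL total RNA libraries. The submitters' processing notes name Trimmomatic 0.38.1, STAR 2.7.8a, featureCounts 2.0.1 and GRCm39. The authors deposited unnormalized whole-number counts per gene and library, and a table of DESeq2 variance-stabilized values on a log2 scale, deposited for 46123 genes. Whether counting used strand is not given in the sources used here.

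All 10 libraries entered 1 fit of their counts by edgeR 4.0.16 (R 4.3.3), tested by quasi-likelihood after TMM scaling and filterByExpr. P-values of 29952 genes were adjusted by the Benjamini-Hochberg method. Levels on the log2 scale used a prior count of 2. Exact permutation tests were two-sided. Counts per kb and positions used GENCODE vM39. A count of at least 3 was taken as the floor, which covers counting error only. Total counts were 5663491 to 9352109 per library.

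The 9 members, the lists and the tests were chosen with earlier results of these data known. Named genes are the members, Myc, Smarca4, at most 4 called genes per list and comparison with the lowest p, and the 3 most similar genes of each member. Atoh1, as the gene behind the Cre driver, the members of the E protein list, the markers listed at 0 and the genes named for their weight in a sum fall outside this rule. Alternatives were DESeq2 1.42.0, limma 3.58.1 on the deposited log2 values, RLE factors, no filter, at least 10 counts in every library, robust estimation, fits of only the 2 groups compared, a block for the replicate number, leaving out single libraries, library sizes that omit mitochondrial and rRNA-like genes, p-values without adjustment and the study's thresholds. Limma voom with a spread per group was added after seeing the data. Scripts were tested on simulated data. Protein sequences were not analysed here, and results for some genes are not reported here.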

Additional observations from a re-analysis of the deposited data

Results flagged for a closer look

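Id3 in tumor 3 stood apart from the 3 other tumors, with a log2 CPM of 0.73 (1.39 CPM, from 10 counts) beside 13.0 to 15.3 CPM. The gap to the nearest tumor, relative to the range of the group, was above Dixon's 95% critical value for 4 samples. Of 9 such tests, 1 for each member over the 4 tumors, 1 was past this value, and chance alone gives about 1 in 20. The other groups have 3 libraries and were not tested in this way.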

How the results depend on the processing

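The 27 log2 fold changes of the 9 genes in 3 comparisons were recomputed under 20 alternatives each, 540 values in all. Direction was kept in 525, and both direction and side of the threshold in 500. In 25 a difference became called, and in 0 a call was lost. Only Nes in tumors against SHH MB was called in the main fit, so a call could be lost only in its 20 alternatives. The number of members called was 0 in tumors against P7 cerebella, 1 in tumors against SHH MB and 0 in SHH MB against P7 cerebella. With single libraries left out it was 0 to 1, 1 to 2 and 0 to 1. With unadjusted p-values it was 2, 2 and 2. With a spread per group it was 2, 2 and 5. At the study's thresholds the second was 0. In SHH MB against P7 cerebella it was 1 without a filter on low counts, 1 with at least 10 counts in every library, 1 with DESeq2 and 7 in the fit of the 2 groups alone. With the replicate number as a block it was 0, 1 and 0. Same-numbered libraries did not deviate together, since the correlation of their deviations ranged from -0.27 to 0.16 over 9 pairs and was above 0.1 in 1, so the numbers were not taken as pairing.

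Fold changes of 5 results close to 0 changed sign, and none of them was called. Vim in tumors against P7 cerebella was -0.12 with at least 10 counts, -0.059 with the replicate block and -0.046 to 0.27 with single libraries left out, with -0.046 without tumor 2 and -0.04 without tumor 4. Msi1 in this comparison was 0.0019 without tumor 1, within -0.66 to 0.0019. Against SHH MB, Id2 was -0.11 with at least 10 counts, -0.023 with the block, -0.054 by limma on the deposited values, -0.12 by voom and -0.49 without tumor 1, within -0.49 to 0.27, and Id4 was 0.11 without tumor 3 and 0.05 without SHH MB 1, within -0.86 to 0.11. Msi2 between SHH MB and P7 cerebella was -0.028 with at least 10 counts and negative without P7 cerebellum 2 or SHH MB 3, within -0.019 to 0.13. The cause of these changes was not tested. Over the 9 genes the largest SE was that of Id4, and depth was not tested as its limit.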
